A study of Homo sapiens with 4 samples.

Results

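DIO2 and CALCR are 2 genes that were nearly silent in control cells of 2 breast cancer lines and clearly expressed after depletion of hnRNPM, an RNA-binding protein that regulates splicing. They were chosen from a table of 20329 genes because their level was below 0.3 FPKM in both control libraries and above 7 FPKM in both knockdown libraries. FPKM is a level per gene length and sequencing depth. The knockdown and control levels of both genes are therefore given as a description, with no test.

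The cells were BM1 (1833) and LM2 (4175), labelled as derivatives of the triple-negative human breast cancer line MDA-MB-231 from bone (BM1) and lung (LM2) metastasis. In each line, a control population expressed a non-specific shRNA and a knockdown population an shRNA to hnRNPM, with 1 library per line and treatment. All 4 populations carried their shRNA stably after infection with a lentiviral vector and grew in serum-supplemented medium. RNA was purified by its polyA tail and made into stranded paired-end libraries. The labels do not say whether 1 or several hnRNPM shRNAs were used. In pairs of values below, the control comes first.

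DIO2 encodes type 2 iodothyronine deiodinase, a membrane enzyme of the endoplasmic reticulum that removes an iodine from the prohormone thyroxine and so makes the active thyroid hormone T3 inside the cell. It is a selenoprotein, known from brain, pituitary and brown fat, and its gene responds to cAMP. CALCR encodes the calcitonin receptor, a class B G protein-coupled receptor that couples to Gs and cAMP and is known from osteoclasts, kidney and hypothalamus. With RAMP proteins as partners, the same receptor binds amylin.

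The DNA before a start site of each gene is shown because both genes went from near silence to expression in the same libraries. Each stretch is the 250 bases before a RefSeq start site (GRCh38.p14, minus strand, 5′ to 3′). That start site is the most upstream one of the gene in the promoter set used, and RefSeq may hold others further upstream. Capitals mark TGACGTCA, the cAMP response element, and TATAAA, the TATA box.

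DIO2, chr14:80212179-80212428: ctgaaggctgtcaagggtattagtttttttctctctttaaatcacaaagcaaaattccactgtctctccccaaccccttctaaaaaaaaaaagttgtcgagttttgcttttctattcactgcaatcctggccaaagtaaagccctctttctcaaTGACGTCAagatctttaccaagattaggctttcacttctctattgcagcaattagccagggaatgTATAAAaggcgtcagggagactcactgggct

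CALCR, chr7:93574725-93574974: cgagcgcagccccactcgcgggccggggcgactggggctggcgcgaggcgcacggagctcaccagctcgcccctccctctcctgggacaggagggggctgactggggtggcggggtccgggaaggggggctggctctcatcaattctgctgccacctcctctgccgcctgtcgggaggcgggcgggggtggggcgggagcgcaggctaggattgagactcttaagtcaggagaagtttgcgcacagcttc

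The 2 sequences differ in composition. The DIO2 stretch is 40.8% G and C with 3 CpG dinucleotides, and the CALCR stretch is 70.8% with 20, beside medians of 58.0% and 11 over 35116 RefSeq promoters. The DIO2 stretch holds TGACGTCA, starting 96 bases before the start site, and TATAAA, starting 31 bases before it. Searched on both strands, TGACGTCA is in 1.65% and TATAAA in 10.7% of the 35116 promoters. Neither motif is in the CALCR stretch, and the 5-letter core TGACG, found in 21.2% of promoters, is not there either. The DIO2 stretch holds TGACG 3 times, of which 2 matches lie within the TGACGTCA. A second RefSeq start site of each gene has no match to these motifs, at 46.4% G and C for DIO2 and 34.0% for CALCR. These matches describe letters in a window, and the table does not say which start site was used.

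The targeted gene was examined first. HNRNPM was at 171 FPKM in the BM1 control and 28.4 FPKM in the BM1 knockdown library, and at 132 and 20.3 FPKM in the LM2 libraries. This left 16.6% of the control level in BM1 and 15.4% in LM2. The 6 breast carcinoma markers listed differed in level. KRT8 lay between 398 and 1181 FPKM (higher after knockdown, limma adjusted p 0.0253). VIM was at 2354 and 1160 FPKM (BM1) and at 1575 and 1795 FPKM (LM2). KRT18 lay between 129 and 319 FPKM, CD44 between 155 and 223 FPKM and EGFR between 31.4 and 80.6 FPKM. EPCAM was low, between 3.0 and 4.6 FPKM. ERBB2 lay between 13.5 and 21.9 FPKM, and the hormone receptor genes ESR1 and PGR had no entry in the table.

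In BM1, DIO2 (ENSG00000211448.11, chromosome 14, 80663870 to 80854100, minus strand) was at 0.0603 FPKM in the control and 18.7 FPKM in the knockdown library. In LM2 it was at 0.152 FPKM in the control and 10.6 FPKM in the knockdown library. Both knockdown libraries lay above both controls by the rule that chose the gene. The ratios were 309-fold in BM1 and 70.2-fold in LM2. On the log2(FPKM + 1) scale, which understates the change of low genes, the differences were 4.21 in BM1 and 3.34 in LM2. In RNA from whole cultures, more expressing cells and more RNA per cell cannot be told apart.

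In BM1, CALCR (ENSG00000004948.13, chromosome 7, 93053799 to 93204042, minus strand) was at 0.0433 FPKM in the control and 7.51 FPKM in the knockdown library. In LM2 it was at 0.241 FPKM in the control and 12.7 FPKM in the knockdown library. The rule fixed the direction here as well, and the ratios were 174-fold in BM1 and 52.8-fold in LM2. The differences on the log2(FPKM + 1) scale were 3.03 and 3.47.

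**Figure D1:**
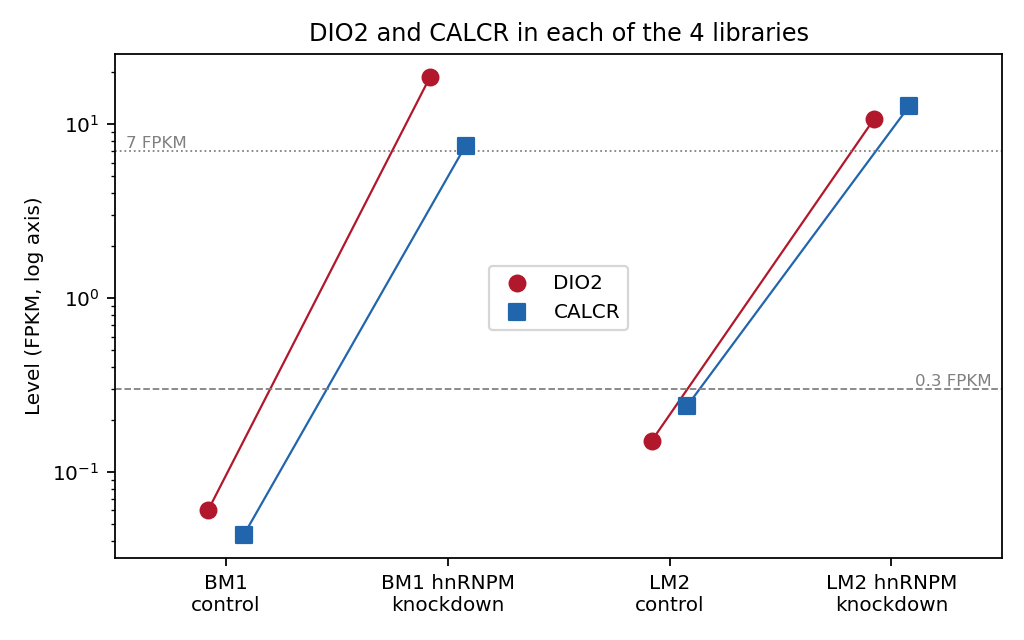
DIO2 (circles) and CALCR (squares) in each of the 4 libraries, as FPKM on a log axis, with a line joining the control and knockdown library of each cell line. All 4 control values lie below the dashed line at 0.3 FPKM and all 4 knockdown values above the dotted line at 7 FPKM, from 7.51 to 18.7 FPKM.

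The same table of genes gives a sense of these levels. In the BM1 control library 6.25% of genes lay below DIO2 and 4.65% below CALCR, and in the BM1 knockdown library 79.0% and 62.3% did. In LM2, DIO2 moved from above 11.9% of genes to above 69.5%, and CALCR from above 16.1% to above 72.7%. Among all 20329 genes, ranked by the difference on the log2(FPKM + 1) scale, DIO2 was 6th in BM1 and 8th in LM2. CALCR was 18th in BM1 and 6th in LM2.

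The control levels rested on few fragments. Low values in the table fall on steps that put the libraries at about 22773216 to 41495504 fragments, if 1 step is 1 fragment. For a transcript of 6367 bases, the longest coding one of DIO2 in GENCODE 29, this gives about 12.0 fragments in the BM1 control and 40.0 in the LM2 control. The knockdown libraries then hold about 2700 and 1850. For the CALCR transcript of 3829 bases the corresponding numbers are about 5.17 and 38.2 in the controls and 655 and 1330 in the knockdown libraries. The folds of CALCR and DIO2 in BM1 thus have a small denominator. Between 36.4% and 44.6% of the low values lay within 0.02 of a whole step, so these are estimates and no count test was run.

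The 2 genes did not keep the same order. Levels in FPKM are per length, so they can be roughly compared between genes, though the transcript length behind each is not known here. The control levels in the ratios below rest on the few fragments estimated above. DIO2 was at 1.39 times the CALCR level in the BM1 control and 2.48 times in the BM1 knockdown library, but at 0.629 and 0.837 times in the LM2 control and knockdown libraries. In the controls, LM2 was above BM1 for both genes, by 2.51-fold for DIO2 and 5.56-fold for CALCR. In the knockdown libraries DIO2 was 1.75-fold higher in BM1, and CALCR was 1.69-fold higher in LM2. From lowest to highest, the order over libraries was BM1 control, LM2 control, LM2 knockdown and BM1 knockdown for DIO2. For CALCR the last 2 were exchanged. With 1 library per line and treatment, these differences between lines have no replicate check.

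DIO2 and CALCR were then placed among the other silent genes. Of the 20329 genes, 3003 were below 0.3 FPKM in both controls. Above 7 FPKM in both knockdown libraries were 2 of them (0.0666%), which are DIO2 and CALCR by the rule itself. Above 1 FPKM in both knockdown libraries were 24 (0.799%). The median of the 3003 genes was 0.118 FPKM in the BM1 knockdown and 0.0986 FPKM in the LM2 knockdown library, beside 0.0832 and 0.0930 FPKM in the controls. Most genes silent in the controls thus stayed at low values. In the other direction, 2938 genes were below 0.3 FPKM in both knockdown libraries, and of these 0 were above 7 FPKM and 8 above 1 FPKM in both controls. The contrast above 1 FPKM depended on the cut for silence. With silence below 0.5 FPKM, 46 of 4105 genes (1.12%) came on above 1 FPKM, and 44 of 4176 (1.05%) went the other way. Above 7 FPKM these numbers were 3 and 1.

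The genes just outside the rule were 4 that exceeded 3 FPKM in both knockdown libraries. RSC1A1 was at 7.73 FPKM in the BM1 and 4.97 FPKM in the LM2 knockdown library, from 0.154 and 0.156 FPKM in the controls, and it overlaps DDI2 on the same strand. TRIM29, which encodes a TRIM family protein of stratified epithelia, was at 11.2 FPKM in the BM1 and 3.62 FPKM in the LM2 knockdown library, from 0.220 and 0.0579 FPKM. AC010441.1 was at 4.99 and 4.69 FPKM in the knockdown libraries. It overlaps SMIM3 on the same strand, and SMIM3 showed the mirror image, from 3.58 and 3.94 FPKM in the controls to 0.0297 and 0.137 FPKM. These gene models nearly coincide (150157867 to 150176297 and 150157508 to 150176296), so the stretch as a whole was not silent in the controls. Each is counted above as a gene of its own. RP11-517I3.1, at 4.42 and 3.77 FPKM, overlaps GRAMD3 on the opposite strand. DIO2 and CALCR overlap no other listed gene on either strand.

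**Figure D2:**
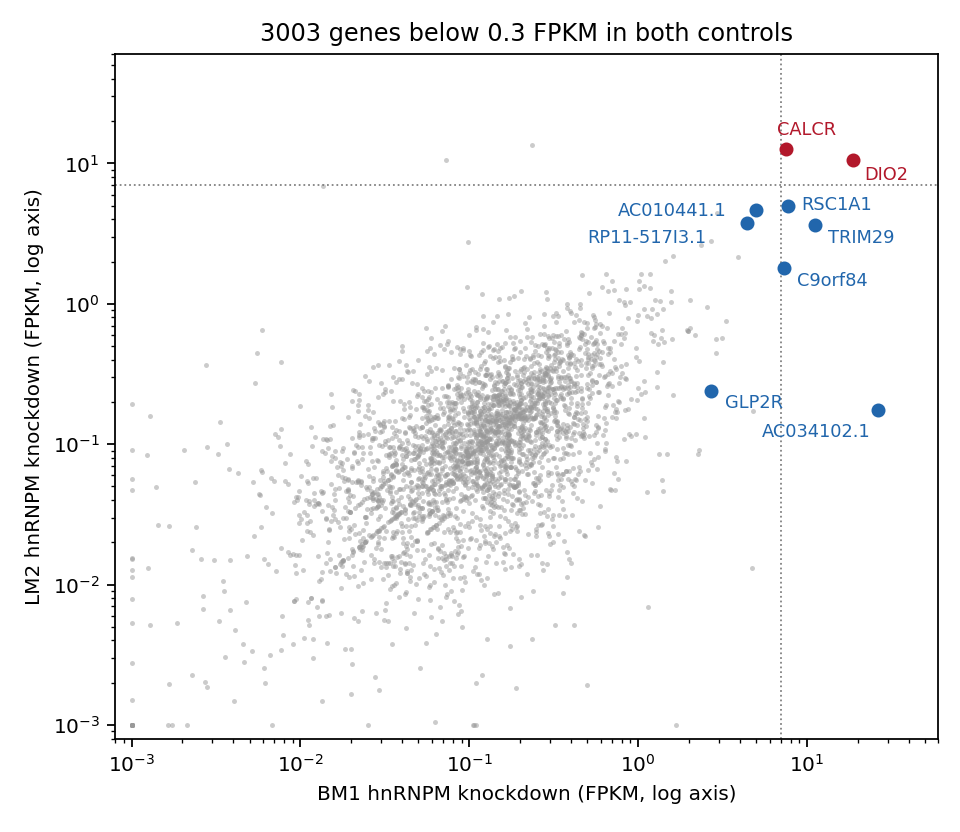
Each point is 1 of the 3003 genes below 0.3 FPKM in both controls, placed by its level in the BM1 (horizontal) and LM2 (vertical) knockdown library, in FPKM on log axes, with values under 0.001 drawn at 0.001. DIO2 and CALCR are in red, the dotted lines mark 7 FPKM, and the named genes in blue lie outside the upper right corner.

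The 5 genes nearest to each member were found by the Euclidean distance of log2(FPKM + 1) over the 4 libraries. SYT12, which encodes a synaptotagmin, was nearest to both, at a distance of 0.894 from DIO2 and 0.696 from CALCR. It was at 0.196 and 10.3 FPKM in BM1 (control, knockdown) and at 0.335 and 8.56 FPKM in LM2. The LM2 control value is the reason it is not among the silent genes. DIO2 was followed by OLR1, which encodes a receptor for oxidized LDL (1.06), ATOH8, a basic helix-loop-helix transcription factor gene (1.09), CALCR (1.24) and WFDC21P (1.29). CALCR was followed by RSC1A1 (1.21), DIO2 (1.24), GPNMB, which encodes a transmembrane glycoprotein (1.24), and CXADR, the coxsackievirus and adenovirus receptor gene (1.31). With 4 libraries such a distance describes likeness of level and says nothing of shared control.

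The genes around each member were compared next. Within 500000 bases of DIO2 the table lists NRXN3, a neurexin gene, and CEP128, a centrosome protein gene. NRXN3 was at 0.452 and 1.21 FPKM (BM1) and at 0.00374 and 0.0533 FPKM (LM2). CEP128, 89.2 kb away, was between 2.71 and 3.67 FPKM in all 4 libraries. The gene model of DIO2 in the table spans 190.2 kb, against 33.5 kb in RefSeq, while that of CALCR spans 150.2 kb in both. The distance of 89.2 kb is from the longer DIO2 model. The DIO2 promoter shown above is before a RefSeq start site, which may not be the start of that model.

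Around CALCR the table lists 7 genes. The nearest, GNGT1 at 16.8 kb, stayed between 0.0745 and 0.256 FPKM in the 4 libraries. SAMD9 and SAMD9L, a pair of interferon-inducible genes, lie 306.5 and 276.1 kb away and were higher after knockdown. SAMD9 rose from 1.57 to 6.19 FPKM (BM1) and from 3.24 to 8.41 FPKM (LM2), by 1.32 ± 0.26 (log2, SE; limma adjusted p 0.0268). SAMD9L rose from 0.680 to 3.80 FPKM (BM1) and from 1.87 to 6.18 FPKM (LM2), by 1.42 ± 0.25 (limma adjusted p 0.0208). The test is limma on log2(FPKM + 1) with terms for line and treatment, over 13928 genes with a mean of at least 1 FPKM. It called 762 of them (5.47%), 378 higher (2.71%) and 384 lower (2.76%), and 3465 (24.9%) had an unadjusted p under 0.05. VPS50, a vesicle trafficking gene 63.4 kb from CALCR, was at 2.62 and 9.63 FPKM (BM1) and at 5.10 and 6.50 FPKM (LM2), a difference of 1.56 in BM1 and 0.30 in LM2. VPS50, TFPI2, GNG11 and BET1 did not pass (limma adjusted p 0.130 to 0.494).

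**Figure D3:**
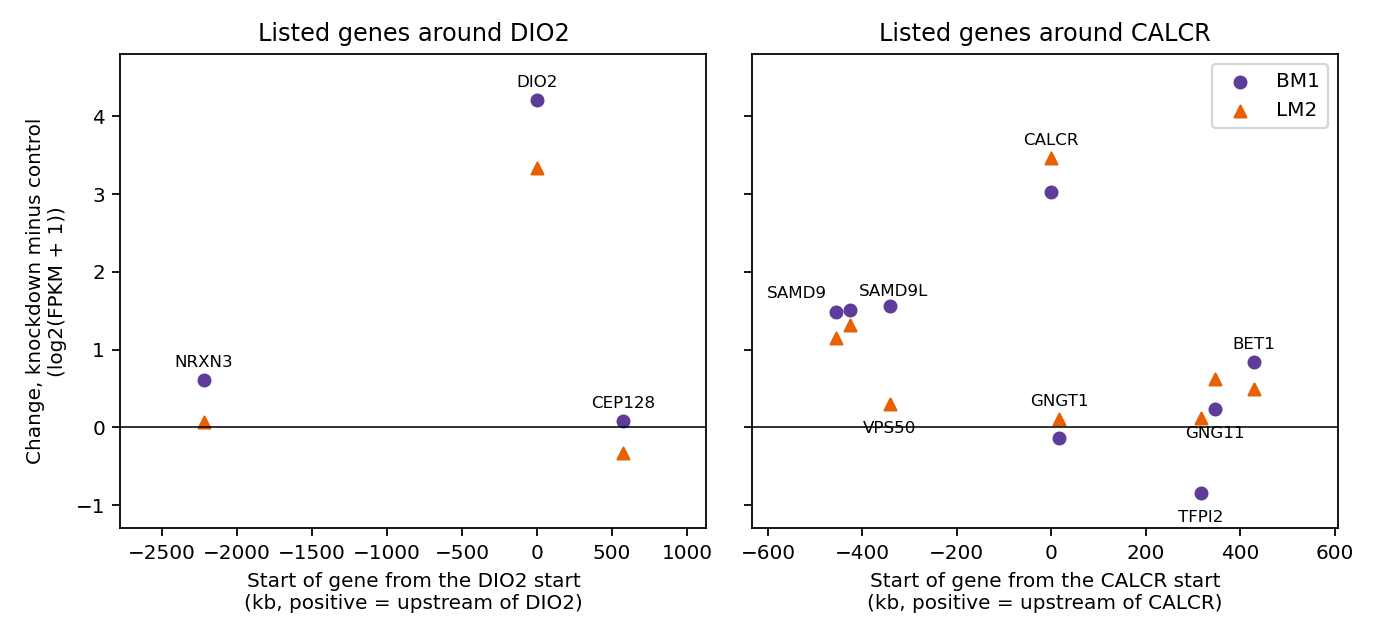
Change from control to knockdown on the log2(FPKM + 1) scale in BM1 (circles) and LM2 (triangles) for the genes listed within 500000 bases of DIO2 (left) and CALCR (right), by the distance of their start from the member's start in kb. DIO2 and CALCR reach 3.03 to 4.21, SAMD9 and SAMD9L reach 1.15 to 1.51, and VPS50 is at 1.56 in BM1 and 0.30 in LM2.

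The limma calls rest on 2 pairs of libraries and 1 residual degree of freedom per gene. Of the 15 genes called here that are not DIO2 or CALCR (HNRNPM, the 2 SAMD9 genes, 9 pathway genes below and the markers KRT8, COL1A1 and CD68), all 15 passed with size factors and 13 with a pseudocount of 0.5. None of the 15 passed with a pseudocount of 0.1, under quantile normalization, when the filter or the pairing was dropped, or with any 1 of the 4 libraries left out. The direction stayed the same in each of these settings, except for COL1A1, whose change was -0.005 without the BM1 control library.

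The genes that supply, receive or answer thyroid hormone were examined next. Of 20 genes of deiodination, transport and reception 13 are in the table and 11 were tested, with 0 called by limma, beside 5.47% of all genes tested. At an unadjusted p under 0.05 there was 1 of the 11, beside 24.9% of all genes. With so few genes, neither count is set apart from these shares. Their median change was -0.21, against -0.01 over all genes tested. The other deiodinases were low or unlisted: DIO1 was between 0.0247 and 0.551 FPKM, and DIO3 has no entry. Among the receptors, THRA was between 4.30 and 6.54 FPKM in the 4 libraries. THRB was at 1.73 and 0.962 FPKM (BM1) and at 1.73 and 0.467 FPKM (LM2) (change -0.69, limma adjusted p 0.151). The next largest changes were in the retinoid receptor gene RXRB (-0.43) and the corepressor gene NCOR1 (0.40). SLC7A5, a transporter of large amino acids and thyroid hormone, was at 131 and 322 FPKM (BM1) and at 370 and 254 FPKM (LM2), in opposite directions. Of 10 textbook target genes 6 were tested and 0 called by limma (1 at an unadjusted p under 0.05, beside 24.9% of all genes; median 0.29). Among the tested ones the largest average changes were in ME1, the cytosolic malic enzyme gene (0.81, limma adjusted p 0.167), and HR, a corepressor gene (0.62, limma adjusted p 0.255), followed by the calcium pump gene ATP2A2 (0.32). The changes of ME1 and HR lay mostly in BM1: 1.41 in BM1 and 0.21 in LM2 for ME1, and 1.14 and 0.09 for HR. KLF9, a hormone-induced transcription factor gene, was at 1.30 and 1.30 FPKM (BM1) and at 1.53 and 1.15 FPKM (LM2).

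DIO2 needs the machinery that inserts selenocysteine, and limma called 2 of its 9 genes, beside 5.47% of all genes tested. At a limma unadjusted p under 0.05 there were 4 of the 9, beside 24.9% of all genes. EEFSEC, the elongation factor for selenocysteine, fell from 7.45 to 2.48 FPKM (BM1) and from 5.93 to 1.30 FPKM (LM2), by 1.44 ± 0.26 (log2, SE; limma adjusted p 0.0208). It overlaps RUVBL1 on the opposite strand. SECISBP2L, a relative of the SECIS-binding protein gene SECISBP2, rose from 2.63 to 12.1 FPKM (BM1) and from 5.98 to 12.3 FPKM (LM2), by 1.39 ± 0.30 (limma adjusted p 0.0350). SECISBP2 itself was at 7.78 and 7.58 FPKM (BM1) and at 17.9 and 15.1 FPKM (LM2) (limma adjusted p 0.787). SARS, the seryl-tRNA synthetase gene, was next in size (-0.71, limma adjusted p 0.141), and the median of the 9 was -0.13.

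Of 18 other selenoprotein genes in the table, 17 were tested, with 1 called higher and 2 lower and a median of -0.40. Limma called 5.47% of all genes tested. At a limma unadjusted p under 0.05, in either direction, there were 8 of the 17, beside 24.9% of all genes. TXNRD1, the cytosolic thioredoxin reductase gene, rose from 111 to 534 FPKM (BM1) and from 184 to 380 FPKM (LM2) (1.65 ± 0.32, limma adjusted p 0.0274), and it overlaps EID3 on the same strand. GPX1, a glutathione peroxidase gene, fell from 232 to 48.8 FPKM (BM1) and from 426 to 201 FPKM (LM2), a change of -1.65 ± 0.32 (limma adjusted p 0.0254). SELO fell from 9.60 to 3.99 FPKM (BM1) and from 7.83 to 3.06 FPKM (LM2) (change -1.10, limma adjusted p 0.0421). Called selenoprotein genes thus lay on both sides, while of the 17 tested 3 were higher in both lines and 8 lower in both.

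DIO2 protein is short-lived, and the genes of its ubiquitination and rescue were listed for that reason. All 6 were tested and 0 called by limma (2 at an unadjusted p under 0.05, beside 24.9% of all genes; median -0.25). USP33, a deubiquitinase gene, had the largest change, from 14.5 to 33.6 FPKM (BM1) and from 23.3 to 40.6 FPKM (LM2) (0.96, limma adjusted p 0.0664). UBE2G2, a ubiquitin-conjugating enzyme gene, was at 31.5 and 21.3 FPKM (BM1) and at 33.9 and 16.7 FPKM (LM2) (-0.76, limma adjusted p 0.121). MARCH6, a ubiquitin ligase gene of the endoplasmic reticulum, was at 13.6 and 30.6 FPKM (BM1) and at 27.6 and 26.4 FPKM (LM2). WSB1, the substrate adaptor, was between 17.4 and 25.0 FPKM in the 4 libraries.

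In the family of CALCR 1 gene passed, in the opposite direction. Of 10 genes of calcitonin peptides, related receptors and partners, 5 are in the table and 4 were tested, with 0 called higher and 1 lower (median -0.51). Limma called 5.47% of all genes tested. At a limma unadjusted p under 0.05 there was 1 of the 4, beside 24.9% of all genes. RAMP1, a partner that turns the calcitonin receptor toward amylin and CGRP, fell from 11.0 to 2.39 FPKM (BM1) and from 8.77 to 4.51 FPKM (LM2), by 1.32 ± 0.30 (log2, SE; limma adjusted p 0.0425). RAMP2, RAMP3 and the ligand genes CALCA, CALCB and IAPP have no entry. ADM, the adrenomedullin gene, was at 37.0 and 25.0 FPKM (BM1) and at 57.3 and 40.1 FPKM (LM2) (limma adjusted p 0.236). CRCP, a component gene of the CGRP receptor, was at -0.49 (limma adjusted p 0.334). CALCRL, the closest relative of CALCR, stayed between 0.0123 and 0.0665 FPKM in the 4 libraries.

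Among 14 other class B receptor genes, 4 are in the table. VIPR1, a receptor gene for vasoactive intestinal peptide, fell from 10.7 to 4.09 FPKM (BM1) and from 92.7 to 19.7 FPKM (LM2) (change -1.69 ± 0.30, limma adjusted p 0.0208). It overlaps VIPR1-AS1 on the opposite strand, and it was the only one of the 4 tested. Limma called 5.47% of all genes tested, and 24.9% had an unadjusted p under 0.05. A single gene cannot be set apart from these shares. GLP2R, silent in both controls at 0.0700 and 0.0553 FPKM, was at 2.71 FPKM in the BM1 and 0.241 FPKM in the LM2 knockdown library. GIPR was at 0.146 and 0.401 FPKM (BM1) and at 0.125 and 0.440 FPKM (LM2).

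Both genes touch cAMP, CALCR as a source and DIO2 as a target, so that pathway was listed as well. Of 42 signalling genes 31 were tested, with 1 called higher and 0 lower (median -0.13), beside 5.47% of all genes called in either direction. At a limma unadjusted p under 0.05 there were 5 of the 31, beside 24.9% of all genes. PRKACB, a catalytic subunit gene of protein kinase A, rose from 2.84 to 10.3 FPKM (BM1) and from 7.87 to 17.1 FPKM (LM2) (1.29 ± 0.27, limma adjusted p 0.0319). GNAS, the gene of the Gs alpha subunit, was at 414 and 173 FPKM (BM1) and at 255 and 194 FPKM (LM2) (-0.82, limma adjusted p 0.129). GRK5, a receptor kinase gene, was lower in both lines (-0.93, limma adjusted p 0.0687). Of 18 target genes 11 were tested, with 1 called higher and 0 lower (median 0.85). At a limma unadjusted p under 0.05, in either direction, there were 7 of the 11, beside 24.9% of all genes. Of the 11, 6 were higher in both lines and 2 lower in both. AREG, the amphiregulin gene, rose from 4.57 to 14.9 FPKM (BM1) and from 3.47 to 13.7 FPKM (LM2) (1.61 ± 0.25, limma adjusted p 0.0147). BDNF (1.08), PDE4B (0.96) and PPARGC1A (0.95) were higher in both lines without passing (limma adjusted p 0.0592 to 0.0795). So were SIK1 (0.86) and DUSP1 (0.85), with limma adjusted p 0.106 and 0.143. FOS and JUNB were lower in both lines, at -0.46 and -0.84 (limma adjusted p 0.315 and 0.0977). NR4A1, NR4A2 and NR4A3, early cAMP-induced genes, were at most 1.21 FPKM in any library.

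**Figure D4:**
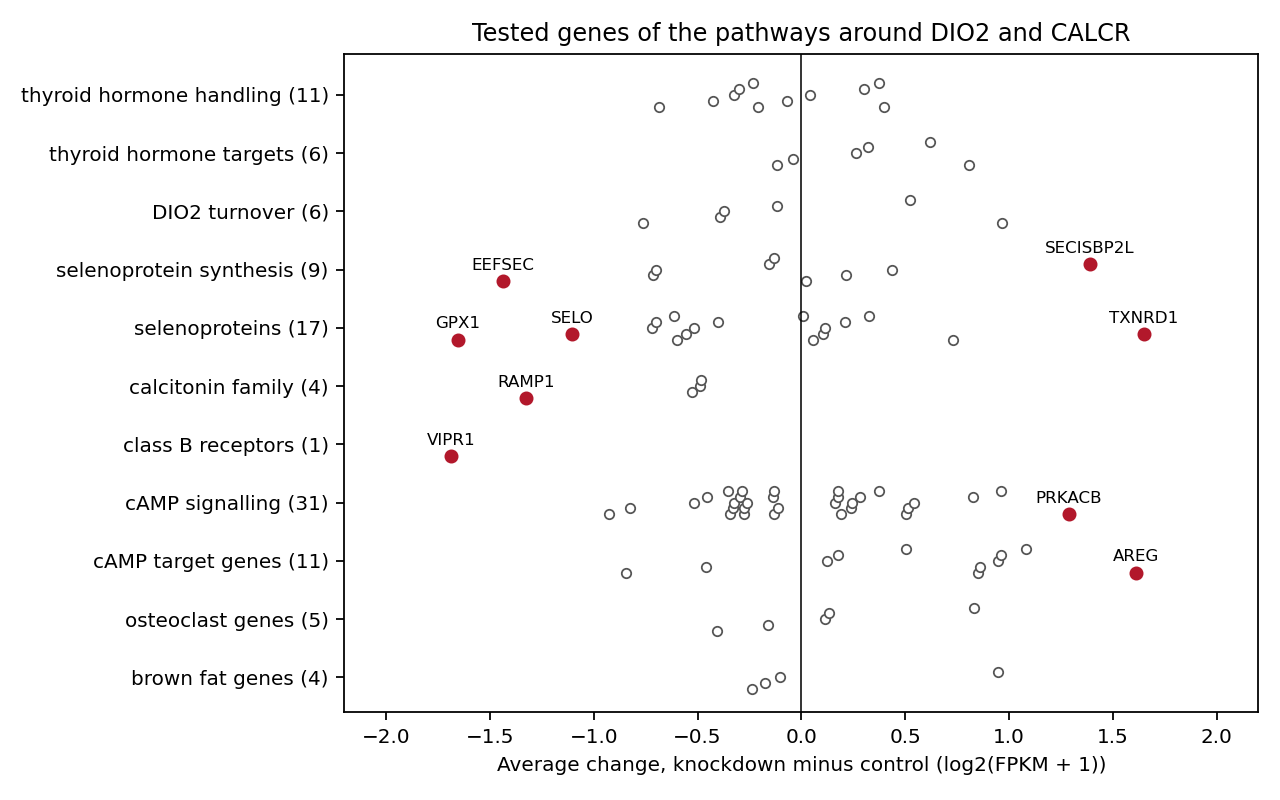
Average change over both lines, knockdown minus control on the log2(FPKM + 1) scale, for each tested gene of 11 lists, with the number tested in brackets. Filled red points passed limma at an adjusted p of 0.05 and are named, and open points did not. The red points lie on both sides of 0, from -1.69 (VIPR1) to 1.65 (TXNRD1).

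The cell types known for DIO2 or CALCR were checked by their other genes. Of 16 osteoclast genes 10 are in the table, and of the 5 tested 0 were called by limma (1 at an unadjusted p under 0.05, beside 24.9% of all genes; median 0.12). Among those 5, the largest changes were in OSTM1 (0.83), TNFRSF11A (-0.41), the RANK gene, and TCIRG1 (-0.16). CA2, a carbonic anhydrase gene under the filter, was at 0.837 and 0.237 FPKM (BM1) and at 2.28 and 0.171 FPKM (LM2). ACP5, DCSTAMP, OCSTAMP and MMP9 have no entry, and CTSK was between 0.247 and 1.21 FPKM. Of 16 brown fat genes 6 are in the table, and of the 4 tested 0 were called by limma (1 at an unadjusted p under 0.05, beside 24.9% of all genes; median -0.14). Among those 4, PPARGC1A was followed by PPARA (-0.24). UCP1, CIDEA and PRDM16 have no entry. Of 6 thyroid genes 2 are listed, of which 1 was tested and 0 called by limma (0 at an unadjusted p under 0.05). Of 5 fibroblast genes 4 are listed, and their summed level was 3.52 and 15.0 FPKM in BM1 and 30.0 and 78.8 FPKM in LM2. COL1A1 rose (1.67, limma adjusted p 0.0171; -0.005 without the BM1 control), DCN has no entry, and LUM was at most 1.61 FPKM. Of 6 blood cell genes only CD14 and CD68 are listed (sum 5.93 to 25.1 FPKM), and PTPRC and CD3E have no entry. CD68 fell (-1.98, limma adjusted p 0.00970), and it overlaps listed genes on both strands. Endothelial genes summed to 0.480 to 1.55 FPKM (2 of 4 listed), and neural genes to 26.7 to 58.6 FPKM (3 of 4), mostly TUBB3. The part of the fibroblast genes in the levels of DIO2 and CALCR was not tested.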

How the data were processed

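The authors deposited 1 table of FPKM values, per the labels, with 1 column per library. STAR 2.5.3a, Cuffdiff 2.2.1 and the build GRCh37 are named, with no role, per the submitters' processing notes. The column layout of the table is not Cuffdiff's, so the program that made the FPKM values is not known here. Gene coordinates are those of the table; promoter sequences and positions are RefSeq's (GRCh38.p14). The sources used here do not give the annotation release or say whether counting used strand. Of 20369 entries, 40 shared a repeated gene ID and were left out. No value is 0, and whether undetected genes were left out is not given. Deposited FPKM values were analysed as log2(FPKM + 1) with limma 3.58.1 in R 4.3.3 (terms for line and treatment, Benjamini-Hochberg adjustment, two-sided, threshold 0.05), after the code was tested on simulated data. The line pairs the libraries, since control and knockdown come from the same cell line. Genes with a mean of at least 1 FPKM were tested. DIO2 and CALCR passed that filter only through their knockdown libraries. Fragment numbers came from the step of low values in 1623 genes with 1 transcript in GENCODE 29, longer than 600 bases. The members and the gene lists, written from general knowledge, were chosen with earlier results of these data known. Named genes are the members, HNRNPM, genes near the members' thresholds, the 5 nearest in level, listed genes within 500000 bases, and in each list the called genes and the largest changes among those tested. Other list genes named for their role, and the genes counted in a single line, were picked after their values were seen. Alternatives were other pseudocounts, scalings, filters, thresholds, no pairing, and leaving out each library. Results for some listed genes are not reported here.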

Additional observations from a re-analysis of the deposited data

Results flagged for a closer look

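In the lists above, 5 genes moved in opposite directions in BM1 and LM2, by at least 0.5 on the log2(FPKM + 1) scale in each line, and the difference between lines was not tested because each line has 1 pair of libraries. The BM1 change minus the LM2 change was 2.53 for the phosphodiesterase gene PDE4D, 1.53 for PDE7B, 1.58 for the adenylyl cyclase gene ADCY7, 1.83 for SLC7A5 and 1.43 for its partner SLC3A2. PDE4D was at 2.27 and 10.1 FPKM in BM1 (control, knockdown) and at 5.59 and 2.88 FPKM in LM2. All 5 were higher in the BM1 knockdown library and lower in the LM2 knockdown library.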

How the results depend on the processing

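The average change of DIO2 (3.77) was 6.14 with a pseudocount of 0.1 and 4.595 with 0.5, because a smaller pseudocount shrinks low values less. That of CALCR (3.25) was 5.48 and 4.02. Scaling by size factors or quantiles moved neither by more than the spread between lines. The count of silent genes above 7 FPKM in both knockdown libraries (2) was 0 with silence set below 0.1 FPKM, since both LM2 controls lie above it, 24 above 1 FPKM, 6 above 3 FPKM, 9 in BM1 alone and 6 in LM2 alone. The limma count of 762 genes was 27 with a pseudocount of 0.1. It was 0 without the filter, with quantile normalization and without the line as a block that pairs the libraries, where 3735, 3255 and 1548 genes had an unadjusted p under 0.05. It was 0 to 0 on leaving out each library, with 860 to 1943 at an unadjusted p under 0.05. The change of COL1A1 (1.67) ran from -0.005 without the BM1 control to 3.354 without the LM2 control. These fits with 3 libraries drop the pairing, so whether a call depends on 1 library cannot be read from them. The cause of the other losses was not tested.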

Other observations

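Counted in a single line, other genes went from below 0.3 to above 7 FPKM. In BM1 these were 7 genes beside DIO2 and CALCR. ATOH8 was at 0.273 and 28.8 FPKM (BM1) and at 1.02 and 8.38 FPKM (LM2). C9orf84 was at 0.0437 and 7.28 FPKM (BM1) and at 0.0571 and 1.79 FPKM (LM2). AC034102.1, at 0.170 and 26.3 FPKM in BM1, stayed at 0.105 and 0.176 FPKM in LM2, and it overlaps RAB5B on the same strand. In LM2 there were 4 genes beside DIO2 and CALCR. PLEKHS1 was at 0.210 and 9.55 FPKM in LM2 and at 2.52 and 9.82 FPKM in BM1. RP13-270P17.1 reached 13.5 FPKM and AL590710.1 10.5 FPKM in the LM2 knockdown library, while both were below 0.3 FPKM in the BM1 knockdown library. RP11-950C14.3 went in opposite directions, at 0.139 and 7.72 FPKM in LM2 and at 13.6 and 0.132 FPKM in BM1, and it overlaps EIF2B2 on the opposite strand. RP13-270P17.1 overlaps MYL12A on the opposite strand and AL590710.1 overlaps VAV2 on the same strand.

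A few of the 24 genes silent in both controls and above 1 FPKM in both knockdown libraries are given as examples. RARRES2, which encodes chemerin, was at 0.126 and 2.93 FPKM (BM1) and at 0.137 and 4.40 FPKM (LM2). WISP2, a matricellular protein gene of the CCN family, was at 0.126 and 3.91 FPKM (BM1) and at 0.0262 and 2.16 FPKM (LM2). LGR5, a receptor gene for R-spondins, was at 0.0693 and 1.09 FPKM (BM1) and at 0.0783 and 1.34 FPKM (LM2). SLC9B1, a sodium/proton exchanger gene, was at 0.00620 and 2.70 FPKM (BM1) and at 0.0407 and 2.80 FPKM (LM2). These genes were chosen after their values were seen.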
